A study of Mus musculus with 3 samples.

Results

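Group 2 innate lymphoid cells (ILC2) were selected from single-cell RNA sequencing of mouse nasal mucosa by a gate on their transcripts. A barcode had to hold at least 500 unique molecular identifiers (UMIs, counts of captured transcript molecules), at least 200 genes and at most 20% mitochondrial UMIs. It also had to hold at least 1 UMI each of Gata3, Il7r and Ptprc, at least 1 UMI of Il1rl1 or Klrg1, and 0 UMIs of Cd3d, Cd3e, Cd79a and Ncr1. Of 32376 kept cells in all, 168 met the gate: 10 of 9515 in the PBS library, 57 of 10712 in the papain library and 101 of 12149 in the library of papain with lonidamine.

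All mice were C57BL/6J, and no mutant allele is given. The controls received PBS in the nose. Intranasal papain (20 µg), a protease from papaya that injures epithelium, was given to the second group, with PBS by gavage. The third group received the same papain and 10 mg/kg lonidamine (LND), which blocks hexokinase and the carriers of pyruvate and lactate, by gavage, and its library is called the lonidamine library here. Animals were pooled within each group, so each group is 1 library with no replicate check, and the number of mice per pool and their age are not given in the sources used here. One label names the papain library Fibroblast, and it was used under its treatment label. Values in square brackets are 95% intervals and cover counting error alone.

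ILC2 are tissue-resident lymphocytes without antigen receptors. Epithelial alarmins, among them interleukin 33 acting on the receptor encoded by Il1rl1, make them release interleukin 5 and interleukin 13, which sustain eosinophils and drive mucus and epithelial change. The transcription factor encoded by Gata3 specifies the lineage and acts on the cytokine locus that holds Il5 and Il13, and Il7r encodes the receptor chain for the survival cytokine interleukin 7.

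The promoters of Il13 and Il5, the cytokine genes on which most of the results turn, are shown with capitals marking a letter match to the core motif of GATA factors. The sequences are from RefSeq on GRCm38.p6, run 5′ to 3′ along the gene's strand, and cover 250 bases before the start site and 50 after it. Il13 lies on the minus strand at chr11:53634653-53634952 and Il5 on the plus strand at chr11:53720544-53720843.
Il13: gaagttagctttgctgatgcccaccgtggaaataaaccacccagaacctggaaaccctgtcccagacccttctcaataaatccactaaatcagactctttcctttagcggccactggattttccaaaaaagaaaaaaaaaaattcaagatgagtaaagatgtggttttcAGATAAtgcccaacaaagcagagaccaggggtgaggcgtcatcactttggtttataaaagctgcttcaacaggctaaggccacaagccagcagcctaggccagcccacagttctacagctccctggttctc
Il5: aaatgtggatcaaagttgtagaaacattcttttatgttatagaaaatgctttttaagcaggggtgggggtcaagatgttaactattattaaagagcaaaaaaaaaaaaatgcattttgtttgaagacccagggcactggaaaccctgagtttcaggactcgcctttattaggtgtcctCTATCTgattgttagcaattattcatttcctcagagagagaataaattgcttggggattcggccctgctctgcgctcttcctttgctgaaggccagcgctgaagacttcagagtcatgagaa
The letters searched on both strands were AGATAA or AGATAG, and either with T in place of the first A. Il13 held 1 match, AGATAA, 81 bases before the start site, and Il5 held 1, read as CTATCT, the reverse complement of AGATAG, 72 bases before it. Such a match was present in 9778 of 32851 RefSeq promoter windows of this length (29.8%), so it is a description of the window and not evidence of binding.

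The label was checked against genes the gate did not use. Rora, a transcription factor needed for ILC2 development, had a UMI in 9 of 10 gated cells in PBS, 56 of 57 in papain and 100 of 101 in the lonidamine library. Arg1, which ILC2 express constitutively in the airways, had one in 6, 37 and 68 cells, and Icos, a costimulatory receptor, in 7, 45 and 72. Id2, an inhibitor of T and B cell fate, had one in 7, 52 and 79 cells. Bcl11b, a factor that stabilizes ILC2 identity, was detected in 6, 29 and 56 cells. Hpgds, a prostaglandin D2 synthase planned as a further marker, was detected in only 3, 7 and 17 cells. Rora and Icos are shared with T cells: thinned to 2000 UMIs per cell, Icos was found in 50%, 57.9% and 51.6% of gated cells and in 58.3%, 71.5% and 71.9% of Cd3+ T cells, and Rora in 70%, 89.5% and 91.6% against 42.9%, 68.3% and 69.0%. Arg1, thinned the same way, was in 50%, 45.6% and 51.6% of gated cells and in 1.19%, 0.806% and 1.99% of T cells. Id2 and Bcl11b were not compared with T cells in this way, so they are not used here to set the gated cells apart from T cells. Of 11 genes of natural killer cells and ILC1, 7 had 0 UMIs in the gated cells of all 3 libraries, among them Klrb1c, Nkg7, Eomes and Tbx21, and a UMI of the list was found in 2, 9 and 19 cells, with Gzma, a granzyme, at 1, 0 and 4 UMIs. Of 8 B and plasma cell genes, 4 were at 0 in all libraries, among them Ms4a1 and Ighd, and a UMI of the list was found in 3, 13 and 27 cells. Ighm, the immunoglobulin mu heavy chain, was the most frequent of these, in 2, 5 and 18 cells. Of 11 mast cell and basophil genes, 7 were at 0 in all libraries, among them Ms4a2, Fcer1a and Mcpt8, and a UMI of the list was found in 1, 12 and 14 cells, with Cpa3, a mast cell protease, in 0, 1 and 6. A UMI of 7 ILC3 genes was found in 1, 6 and 7 cells, and of 6 gamma delta T cell genes in 3, 12 and 20.

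Transcripts shared with T cells were present. Trbc2, a constant segment of the T cell receptor beta chain, had a UMI in 6, 41 and 71 gated cells, Trbc1 in 7, 44 and 66, and Cd3g in 5, 16 and 31. Trac, the constant segment of the alpha chain, was found in 0, 5 and 5 cells, Cd4 in 0, 3 and 1, and Cd8a in none. The summed level of 11 alpha beta T cell genes was 848, 1249 and 953 counts per 1000000 UMIs (CPM) in gated cells and between 3494 and 3738 CPM in Cd3+ T cells of the same libraries. Thinned to 2000 UMIs per cell, Trbc2 was in 40%, 57.9% and 61.1% of gated cells and in 76.6%, 73.1% and 68.8% of T cells. Cd3g was in 20%, 17.5% and 18.9% against 78.2%, 75.3% and 65.3%. By Trbc2 the gated cells of the papain-treated libraries were thus closer to T cells than by Cd3g. A gate that also required 0 UMIs of further T, B and mast cell genes, among them Cd3g, Trac, Trbc1, Trbc2, Trdc, Ms4a1, Cpa3 and Ms4a2, left 2, 3 and 7 cells, too few to carry the comparisons. A gate that required 0 UMIs of such genes, among them Trac, Trdc, Cd4, Cd8a, Ms4a1, Cpa3 and Ms4a2, but allowed Trbc1, Trbc2 and Cd3g left 10, 50 and 91. The second of these gates was chosen after the data were seen.

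Signs of RNA from other cells differed between libraries. Reg3g, a secreted epithelial lectin, had 0, 1079 and 1391 UMIs in gated cells, spread over 0, 37 and 50 cells. Chil4, a chitinase-like epithelial product, had 0, 1406 and 36 UMIs in 0, 30 and 29 cells. The summed level of 10 epithelial genes, including these, was 509, 8332 and 3742 CPM in gated cells against 9237, 28048 and 20504 CPM over all kept cells. Lyz2, a myeloid lysozyme, had 214 UMIs in 4 gated cells of the papain library, and Rgs5, a pericyte gene, 262 UMIs in 10 of the lonidamine library. At least 10 UMIs of a set of 20 neuronal, epithelial, stromal, vascular and macrophage genes were found in 1, 7 and 12 gated cells, and Scrublet called 1, 1 and 4 gated cells doublets. The part of these transcripts in the results was not tested. Over 15 myeloid genes the summed level was 297, 1058 and 1442 CPM, in 7, 41 and 71 gated cells, over 7 neutrophil genes 0, 30.9 and 247 CPM, over 10 stromal and vascular genes 63.6, 98.2 and 806 CPM, and over 9 olfactory neuron genes 1591, 1473 and 533 CPM.

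The libraries had 82399462, 86197965 and 89164040 UMIs in the order PBS, papain, lonidamine. The gated cells held 47145, 356336 and 563287 of them, with a median of 3467.5, 4654 and 3930 UMIs per cell and a range of 1006 to 27240 over all 3 libraries. With 47145 UMIs the PBS cells set the precision of every comparison with that library. Between 22 and 36 kept barcodes were shared by a pair of libraries. No barcode was gated in 2 of them, and 1 gated cell carried a shared barcode.

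The genes of the gate describe how clear the selection was and are no finding. Gata3 had a median of 6.5, 7 and 6 UMIs per gated cell, and Il1rl1, which encodes the interleukin 33 receptor, 2.5, 7 and 6. Il7r had a median of 2.5, 3 and 4 UMIs. Klrg1, a lectin-like inhibitory receptor of mature ILC2, was detected in 5, 27 and 54 gated cells, and all but 1 gated cell of the papain and 1 of the lonidamine library had an Il1rl1 UMI. In 5, 16 and 36 cells at least 1 criterion rested on a single UMI. Just outside the gate, 18, 50 and 79 cells failed exactly 1 criterion. Of these, 5, 20 and 31 failed only by a Cd3d or Cd3e UMI, and those of papain and lonidamine held 53 and 78 Il13 UMIs and 32 and 19 Il5 UMIs.

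Gated ILC2 were a larger share of the tissue in both papain-treated libraries than in PBS. They were 0.105% [0.0504, 0.193] of kept cells in PBS, 0.532% [0.403, 0.689] in papain and 0.831% [0.678, 1.01] in the lonidamine library. The share was thus lowest in PBS, higher in papain and highest in the lonidamine library, and the intervals of the papain and lonidamine libraries overlapped slightly. The share in papain was 5.06-fold [2.56, 11.1] that in PBS, and the share in the lonidamine library 1.56-fold [1.12, 2.20] that in papain and 7.91-fold [4.13, 17.0] that in PBS. Among cells with a UMI of Ptprc, the pan-leukocyte gene, gated ILC2 were 0.523%, 2.56% and 3.70%, so the order was the same within leukocytes. These are ratios between 3 libraries and not tests of the treatments, and more cells in the tissue cannot be told apart from a better recovery of them.

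The other lymphocyte gates did not follow the same order over the 3 libraries. Cd3+ T cells without a Trdc UMI were 2.79%, 3.79% and 3.48% of kept cells. Cells with Cd3 and Trdc, the constant segment of the delta chain of gamma delta T cells, were 2.38%, 0.915% and 1.22%. Natural killer cells, gated on Ncr1 without Cd3, were 0.799%, 0.233% and 0.379%. Both of the latter were highest in PBS, the library in which ILC2 were lowest.

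**Figure D1:**
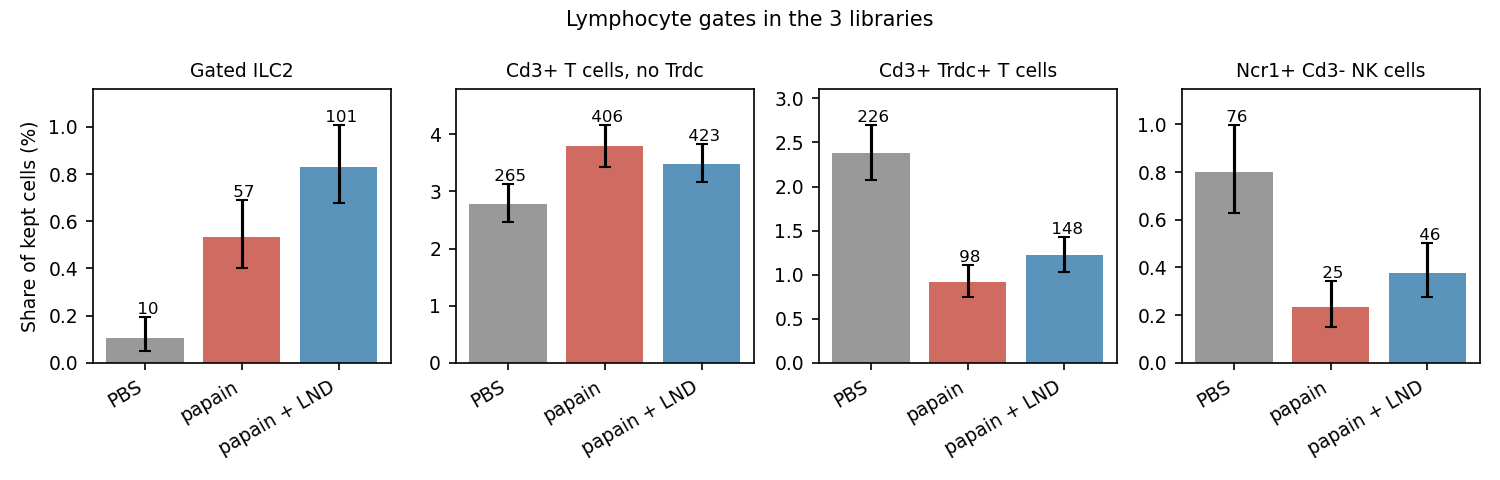
Share of kept cells (y axis, percent) in each of 4 lymphocyte gates for the PBS, papain and papain + LND libraries. Bars start at 0, error lines are exact 95% binomial intervals and the number above each is the cell count. Gated ILC2 go from 10 to 57 to 101 cells, while gamma delta T cells and natural killer cells are highest in PBS.

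Depth and sex of the cells moved with the libraries. When every cell was thinned to 2000 UMIs before the gate was applied, shallower cells left out, 5 of 8502, 36 of 9054 and 57 of 10048 cells passed. The thinned share in papain was 6.76-fold [2.64, 22.1] that in PBS, and that in the lonidamine library 1.43-fold [0.924, 2.23] that in papain, an interval that includes 1. Of gated cells whose sex could be read from Xist and Y-linked transcripts, 6 of 8, 43 of 50 and 86 of 90 were female, against 56.8%, 73.4% and 83.3% of all kept cells so read. Among female cells alone the shares were 0.153%, 0.735% and 1.08%. Among male cells they were 0.0671%, 0.329% and 0.251%, from 2, 7 and 4 gated cells. The share was thus higher in the lonidamine library than in papain among female cells and lower among male cells, where it rests on 7 and 4 cells. The difference between the sexes was not tested, and neither was the part of sex in the shares.

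The secreted products came first in the comparison of levels. Il13, the cytokine of mucus production and tissue remodelling, had 12 UMIs in 4 of 10 gated cells in PBS, 253 in 31 of 57 in papain and 255 in 58 of 101 in the lonidamine library. This is 255 CPM [132, 445], 710 CPM [625, 803] and 453 CPM [399, 512]. Il13 was thus highest in papain, and the intervals of the 2 papain-treated libraries did not overlap. The log2 ratio was 1.42 [0.65, 2.45] for papain against PBS and -0.65 [-0.91, -0.39] for the lonidamine library against papain. With cells thinned to 2000 UMIs the first ratio was 0.60 [-0.38, 1.94], so the difference from PBS was not detectable at equal depth.

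Il5, the growth and survival factor of eosinophils, had 49 UMIs in 3 of 10 gated cells in PBS, 339 in 39 of 57 in papain and 268 in 51 of 101 in the lonidamine library. The levels were 1039 CPM [769, 1374], 951 CPM [853, 1058] and 476 CPM [421, 536]. By these levels PBS and papain overlapped and the lonidamine library lay below both. The log2 ratio of the lonidamine library to PBS was -1.14 [-1.57, -0.66]. Its interval included 0 over cells thinned to 2000 UMIs (-0.37 [-1.14, 0.59]). So did that without the cell with the most Il5 UMIs in each library (-0.50 [-1.09, 0.21]). In the other alternatives that gave an interval, it lay below 0. The log2 ratio was -0.14 [-0.56, 0.34] for papain against PBS and -0.999 [-1.24, -0.76] for the lonidamine library against papain. A single cell held 26 of the 49 UMIs in PBS and another 79 of the 339 in papain. Over cells thinned to 2000 UMIs, Il5 was higher in papain than in PBS, by a log2 ratio of 0.81 [0.06, 1.76], so its direction against PBS depends on how the cells are weighted. Against papain the ratio moved on both sides of 2-fold with the cells taken. It was -1.33 [-1.58, -1.08] without the cells with at least 10 UMIs of the 20 genes of other cells, -1.18 [-1.55, -0.81] over thinned cells and -0.65 [-0.91, -0.39] without the gated cells with T cell, B cell or mast cell genes, Trbc1, Trbc2 and Cd3g allowed. Under the widest exclusion, which left 3 papain and 7 lonidamine cells with 9 and 16 Il5 UMIs, it had the opposite sign, at 1.10 [-0.14, 2.49].

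Both cytokines had a UMI in 0 of 10 cells in PBS (0% [0, 30.8]), in 24 of 57 in papain (42.1% [29.1, 55.9]) and in 35 of 101 in the lonidamine library (34.7% [25.5, 44.8]). The PBS interval overlapped the others. Il13 alone was found in 4, 7 and 23 cells and Il5 alone in 3, 15 and 16. Neither was detected in 3, 11 and 27 cells, whose median depth was 4855, 4530 and 2821 UMIs, against 5245.5 and 4550 UMIs in the cells with both in papain and lonidamine. After thinning to 2000 UMIs, Il13 was detected in 4 of 10, 26 of 57 and 37 of 95 cells and Il5 in 2 of 10, 26 of 57 and 34 of 95. Olfactory neurons thinned the same way should lack both and so show free RNA. No Il13 UMI was seen in the 3165 PBS, 1705 papain and 1818 lonidamine neurons, and Il5 was seen in 1, 0 and 1. Their unthinned median depths were 8106, 7727 and 7085.5 UMIs.

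**Figure D2:**
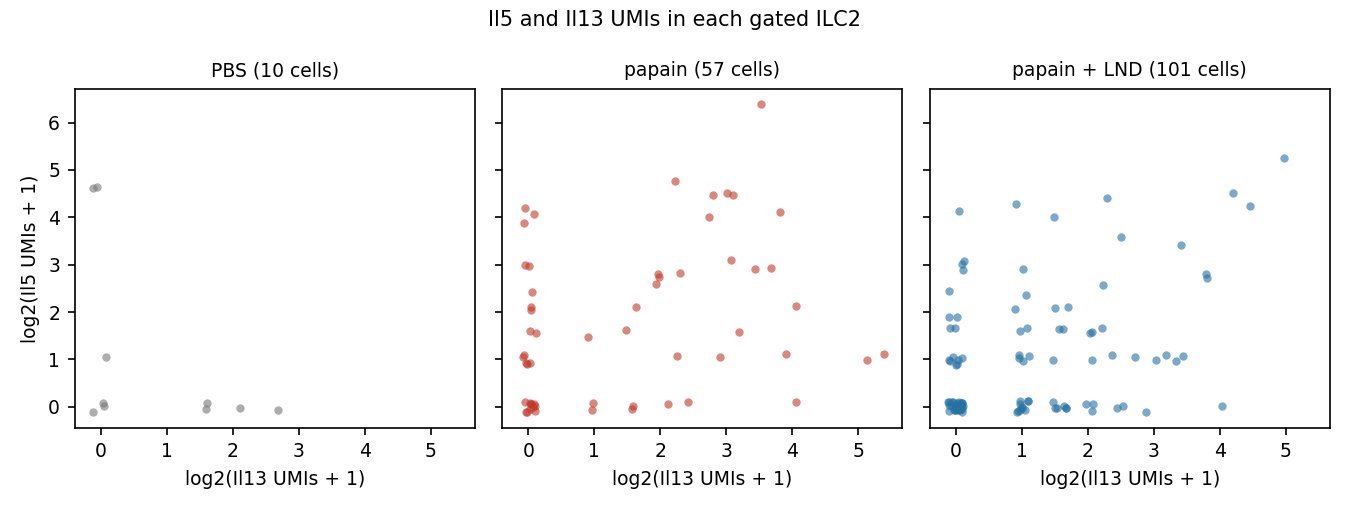
Each point is 1 gated ILC2 with its Il13 UMIs (x axis) and Il5 UMIs (y axis), both as log2 of the count plus 1, moved by a small random amount so that cells at the same count can be seen. In PBS none of 10 cells has both, a share whose interval reaches 30.8%, while 24 of 57 cells in papain and 35 of 101 in the lonidamine library lie away from both axes.

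Klrg1 split the gated cells by part of the gate. Cells with both Il1rl1 and Klrg1 numbered 5, 26 and 53, and those with Il1rl1 alone 5, 30 and 47. In the lonidamine library Il13 was at 569 CPM in the former and 283 CPM in the latter, and Il5 at 384 and 620 CPM. In papain Il13 was at 658 and 782 CPM and Il5 at 775 and 1214 CPM. The size of the papain difference rests on single cells: 1 cell with Il1rl1 alone held 39 of 116 Il13 UMIs and another 79 of 180 Il5 UMIs. Without the top cell for each gene in both groups, an alternative chosen after the data were seen, the levels were close. Il13 was then at 552 CPM in the cells with both and 536 CPM in those with Il1rl1 alone, and Il5 at 678 and 700 CPM. The median depths were 5800 and 4220 UMIs in papain and 4612 and 3276 UMIs in the lonidamine library. The difference was not tested.

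The gated cells held most of the Il5 transcripts of each library and between 40.0% and 55.1% of the Il13 transcripts. Of all Il5 UMIs in kept cells, 49 of 58 (84.5% [72.6, 92.7]) lay in gated ILC2 in PBS, 339 of 434 (78.1% [73.9, 81.9]) in papain and 268 of 350 (76.6% [71.8, 80.9]) in the lonidamine library. Of all Il13 UMIs, 12 of 30 (40.0% [22.7, 59.4]), 253 of 493 (51.3% [46.8, 55.8]) and 255 of 463 (55.1% [50.4, 59.7]) did. Il5 was therefore more concentrated in these cells than Il13 in each library. Cells with Cd3d or Cd3e held 0, 80 and 149 Il13 UMIs, 32.2% of the total in the lonidamine library, and 0, 34 and 42 Il5 UMIs. In papain 60 of the Il13 UMIs, in 1 cell, lay in a cell that failed the gate only for lack of Il1rl1 and Klrg1. Over all kept cells the papain and lonidamine libraries thus had similar totals of Il13, 5.77 and 5.25 CPM, while the lonidamine library had more gated cells with less of it per UMI.

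**Figure D3:**
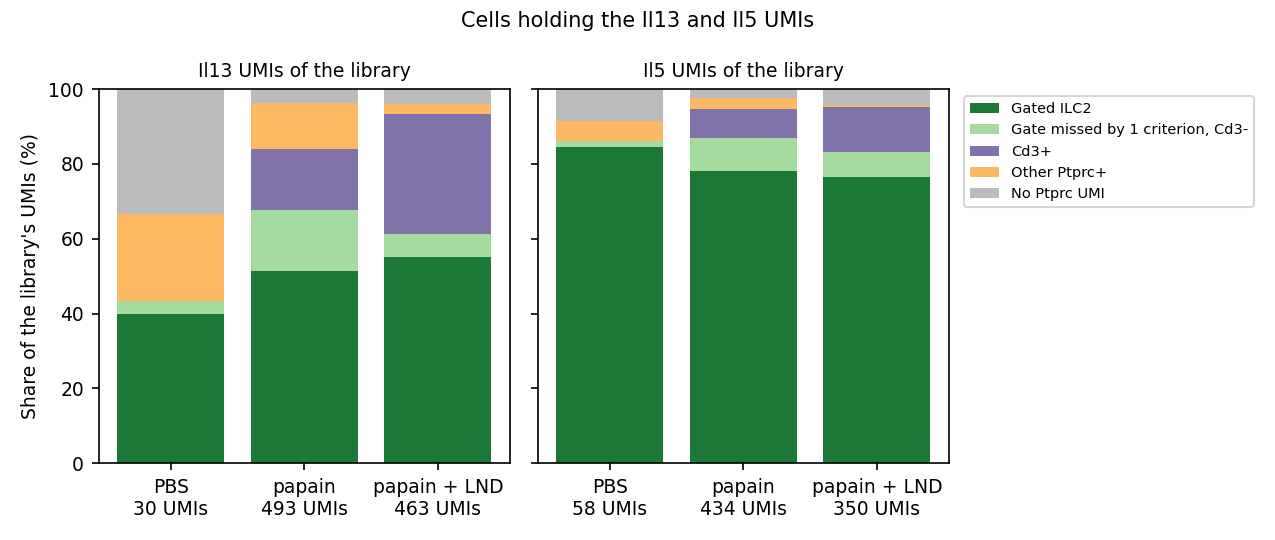
Share of each library's Il13 UMIs (left) and Il5 UMIs (right) that lie in gated ILC2, in Cd3- cells that missed the gate by 1 criterion, in Cd3+ cells, in other cells with a Ptprc UMI and in cells without one (y axis, percent of the UMIs given under each bar). The gated cells hold 76.6% to 84.5% of Il5 and 40.0% to 55.1% of Il13, and the Cd3+ part of Il13 is 0 in PBS.

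Areg encodes amphiregulin, an epidermal growth factor ligand of epithelial repair, and had 3182, 3000 and 2159 CPM, from 6, 54 and 80 cells. Its log2 ratio between papain and PBS had an interval that included 0 (-0.09 [-0.33, 0.17]), and it was lower in the lonidamine library than in papain (-0.47 [-0.59, -0.35]). Calca encodes calcitonin gene-related peptide, which restrains ILC2, and had 806, 1078 and 460 CPM, from 9, 38 and 45 cells. Its log2 ratio was 0.40 [-0.06, 0.94] for papain against PBS and -1.23 [-1.46, -0.998] for the lonidamine library against papain. In the 7 male papain cells and the 4 male lonidamine cells the latter was 1.05, the opposite direction.

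For counts over gene lists, a gene with at least 20 UMIs over the gated cells of both libraries was compared and called at 2-fold or more, gate genes left out. Of all 5928 genes compared between the lonidamine library and papain, 6.19% were called higher, 3.46% lower and 9.65% in either direction. Without the cells with at least 10 UMIs of the 20 genes of other cells, 6.94% of 4465 were called higher and 2.04% lower, so the count of lower genes went from 205 to 91. Of all 3075 compared between papain and PBS, 17.6% were called higher and 9.17% lower, and of 4545 between the lonidamine library and PBS, 21.4% and 10.6%. Many of those higher than PBS had 0 UMIs there. With 3 counts in place of such a 0, 12.4% and 9.50% were called higher. Of the genes called against PBS, 65.7% were higher in papain and 66.9% in the lonidamine library, and these shares were 55.4% and 53.6% with 1 count added in place of 0.5. The direction of a whole list against PBS is limited by this.

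Of 15 effector products compared between the lonidamine library and papain, 3 were called lower and 0 higher, and the median log2 ratio was -0.47 beside 0.06 over all genes. The 3 were Calca, Vegfa, which encodes an angiogenic growth factor and had 20 and 14 UMIs (-1.16 [-2.27, -0.12]), and Penk, the enkephalin precursor. Penk had 36 UMIs in 5 papain cells and 6 in 5 lonidamine cells (-3.15 [-4.78, -1.98]). Il5, at -0.999, lay just inside 2-fold here and past it in some of the alternatives given above. Csf2, which encodes the myeloid growth factor GM-CSF, had 0, 45 and 49 UMIs in 0, 15 and 17 cells. With 3 counts as the floor of the PBS library, its level in papain was 1.98-fold that in PBS. The interval of its log2 ratio started at 0.63, so the fold can be smaller. Ccl1, a chemokine for Ccr8-bearing cells, had 1, 60 and 95 UMIs, a log2 ratio of 2.42 [0.46, 8.32] for papain against PBS. Il9, Il22 and Ifng had 0 UMIs in all gated cells, and Il4 had 1, 14 and 16. Between papain and PBS, 4 of 12 products were called higher and 3 lower, with a median of -0.11. They were Il13, Csf2, Vegfa and Ccl1 on one side and Lif, Penk and Il17a on the other. Lif, a cytokine of the interleukin 6 family, had 11, 11 and 33 UMIs, and Il17a had 13 UMIs in 1 PBS cell. Il17a is also on the list of ILC3 genes, and whether that cell is an ILC2 was not tested.

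Of 18 alarmin and cytokine receptors compared between the papain-treated libraries, 1 was called higher in the lonidamine library and 1 lower, with a median log2 ratio of -0.08. The higher was Il18r1, a chain of the interleukin 18 receptor, with 1, 8 and 46 UMIs in 1, 6 and 22 cells (1.79 [0.77, 3.16]). The lower was Tnfrsf4, the costimulatory receptor OX40, with 1, 57 and 38 UMIs (-1.24 [-1.88, -0.63]). Il17rb, a chain of the receptor for the alarmin IL-25, had 63.6, 160 and 146 CPM. Crlf2, a chain of the receptor for thymic stromal lymphopoietin, had 127, 112 and 97.6 CPM. The log2 intervals of both included 0 in papain against PBS and in the lonidamine library against papain. Il18rap, the other chain of the interleukin 18 receptor, had 0, 43 and 99 UMIs. Its level in papain was 1.90-fold that in PBS with the floor in place of 0, and its log2 interval started at 0.56. Tnfrsf18, the costimulatory receptor GITR, was lower in papain than in PBS and lower again in the lonidamine library, at 891, 466 and 291 CPM (-0.95 [-1.43, -0.41] and -0.68 [-0.998, -0.36]). A single PBS cell held 18 of the 42 Tnfrsf18 UMIs of that library, and the gene was detected in 9 of 10, 49 of 57 and 77 of 101 cells. Against PBS, 5 of 14 receptors were called higher in papain and 1 lower, and 3 higher with the floor in place of 0.

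Receptors for neuropeptides, lipids and hormones included 12 that could be compared between the lonidamine library and papain, of which 1 was called, Calcrl, with 6 and 21 UMIs (1.07 [-0.21, 2.75]). Ramp1, which pairs with Calcrl to form the receptor of calcitonin gene-related peptide, had 742, 292 and 273 CPM and was lower in papain than in PBS by a log2 ratio of -1.36 [-1.91, -0.75]. Ptgir, the prostacyclin receptor, and Cysltr1, a leukotriene receptor, each had a log2 interval that included 0 in both comparisons. Nmur1, the neuromedin U receptor of gut and lung ILC2, had 1, 3 and 3 UMIs, and Ptgdr2, the prostaglandin D2 receptor, had 0 in all.

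**Figure D4:**
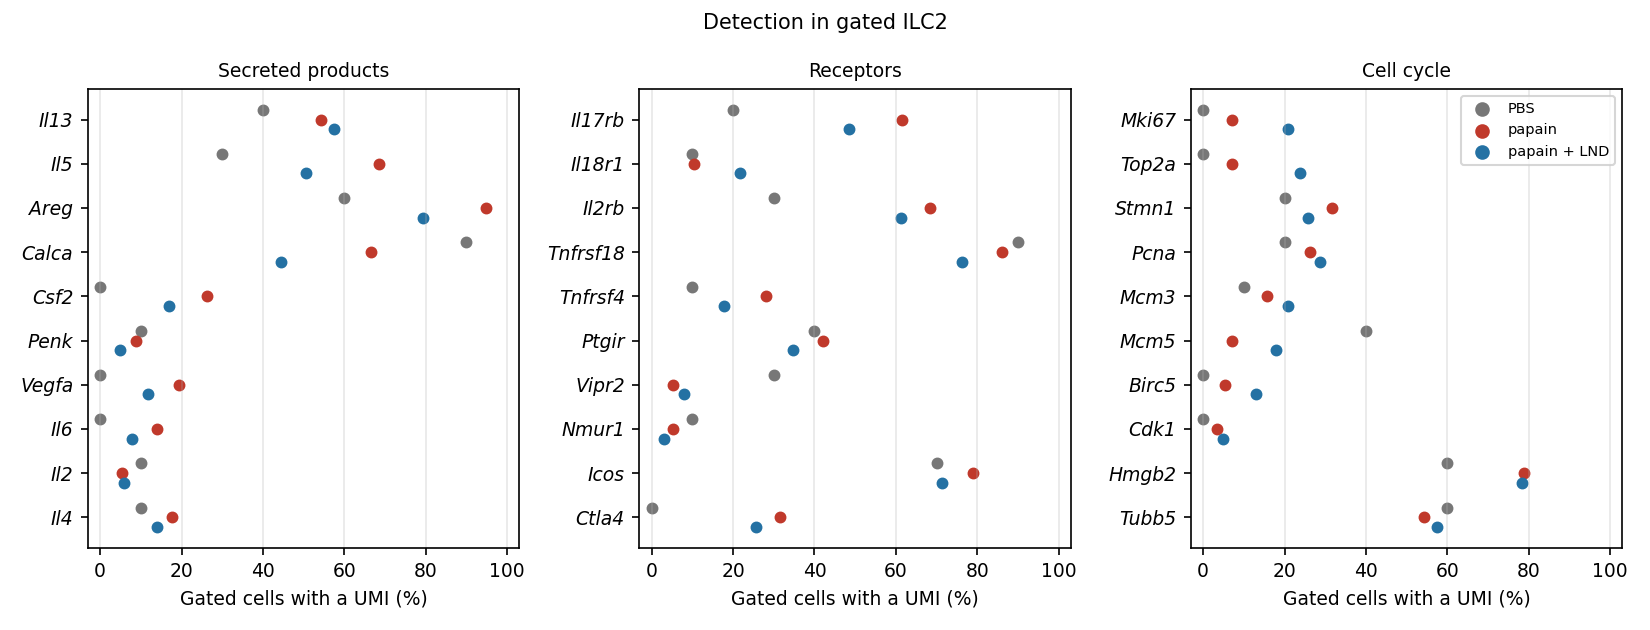
Share of gated cells with at least 1 UMI (x axis, percent) for secreted products, receptors and cell cycle genes, with 1 point per library (PBS grey, papain red, papain + LND blue). Il5, Areg and Calca are detected in a smaller share of the lonidamine than of the papain cells, Mki67 and Top2a in a larger one, and each PBS point rests on 10 cells.

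Of 12 migration and residency genes compared between papain and PBS, 5 were called higher and 0 lower, with 4 higher once the floor replaced 0. They were the chemokine receptors Ccr2 and Cxcr4, the integrin chains Itgal and Itgae, and Gpr183, an oxysterol receptor. Ccr2, a receptor of recruited myeloid and lymphoid cells, had 0, 58 and 138 UMIs in 0, 21 and 48 cells. Its level in papain was 2.56-fold that in PBS with the floor in place of 0, and its log2 interval started at 1.01. In Cd3+ T cells the log2 ratio of Ccr2 between the same libraries was 0.87. Cxcr4, a receptor of leukocyte homing and retention, had 1, 73 and 92 UMIs (2.70 [0.75, 8.59] in papain against PBS), and Itgal, an integrin chain of leukocyte adhesion, 3, 70 and 97 (1.41 [0.02, 3.94]). Cxcr6, a receptor of tissue-resident lymphocytes, had 467, 441 and 305 CPM. In the lonidamine library against papain, Klf2 was called higher, with 5 and 30 UMIs (1.81 [0.54, 3.65]), and Ccr4 lower, with 30 and 22 UMIs (-1.10 [-1.97, -0.27]), of 16 compared. Klf2 encodes a factor that turns on S1pr1, the receptor for exit from tissue, and S1pr1 had 0, 0 and 19 UMIs, the latter in 10 cells. S1pr1 was below the minimum of 20 UMIs and was not counted. The gated cells of the lonidamine library also held more stromal and vascular transcripts, 806 against 98.2 CPM in papain over 10 genes. The part of such RNA in the Klf2 and S1pr1 counts was not tested.

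Of 18 identity genes compared between the papain-treated libraries, 0 were called, and the median log2 ratio was -0.02. Thy1, a surface glycoprotein of lymphocytes, had 106, 149 and 256 CPM and the highest ratio of them (0.77 [0.32, 1.26]). Against PBS, Ets1, a factor needed for ILC2 expansion, had 106, 699 and 689 CPM (2.59 [1.48, 4.36] in papain). Ly6a, a stem cell antigen that interferon raises, had 636, 199 and 225 CPM (-1.69 [-2.31, -1.01]). In papain 4 of 16 identity genes were called higher than in PBS and 2 lower.

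Of 22 activation factors compared between the lonidamine library and papain, only Ahr, the aryl hydrocarbon receptor, was called, with 29 and 19 UMIs (-1.26 [-2.19, -0.39]). Rel, an NF-kB subunit of lymphocyte activation, had 233, 775 and 462 CPM, with log2 ratios of 1.67 [0.87, 2.75] in papain against PBS and -0.75 [-0.997, -0.50] in the lonidamine library against papain. Bhlhe40, which sustains cytokine production, had 721, 1375 and 1323 CPM. Papain against PBS gave 8 of 19 called higher and 1 lower, and 4 higher with the floor, among them Nr4a2 and Nr4a3, immediate early nuclear receptors. Their ratios were 1.98 [0.76, 4.04] and 1.19 [0.44, 2.17].

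Feedback genes had 2 of 14 called higher in the lonidamine library than in papain and 0 lower, namely Socs1 and Socs3, which block cytokine receptor signalling. Socs3 had 1, 15 and 77 UMIs in 1, 10 and 29 cells (1.66 [0.89, 2.60]), and Socs1 had 6, 7 and 31 (1.41 [0.28, 2.91]). Pdcd1, the inhibitory receptor PD-1, had 318, 241 and 165 CPM, with overlapping intervals between PBS and papain. Ctla4, a checkpoint receptor, had 0, 48 and 72 UMIs. Its level in papain was 2.12-fold that in PBS with the floor in place of 0, and its log2 interval started at 0.73. In Cd3+ T cells its log2 ratio between these libraries was 1.57.

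Of 15 cell cycle genes, 11 could be compared between the lonidamine library and papain. Of these 11, 6 were called higher and 0 lower, with a median log2 ratio of 1.36 beside 0.06 over all genes. Mki67, a marker of dividing cells, had 0 UMIs in PBS, 25 in 4 cells in papain and 145 in 21 cells in the lonidamine library (1.85 [1.26, 2.55]). Top2a, a DNA topoisomerase of dividing cells, had 0, 21 and 140 in 0, 4 and 24 cells (2.05 [1.41, 2.81]). Pcna, a clamp of the replication fork, had 2, 25 and 103 UMIs (1.36 [0.74, 2.07]), and Mcm5, a part of the replication helicase, 4, 6 and 39 (1.94 [0.79, 3.57]). A single cell held 42 of the 145 Mki67 UMIs and one 14 of the 25 in papain. For Top2a, 1 cell held 46 of the 140 UMIs and 1 papain cell 15 of the 21. Members not called included Birc5, with 29 and 48 UMIs in papain and lonidamine (0.06 [-0.63, 0.78]), and Hmgb2 (0.24 [0.04, 0.44]). Members below the minimum of 20 UMIs were not compared and went both ways. Among them, Cdc20 had 10 and 4 UMIs in papain and lonidamine (-1.88 [-4.11, -0.19]), Cdk1 8 and 7, and Ccnb1 5 and 12. Cd3+ T cells moved the same way between these libraries, with log2 ratios of 1.10 for Mki67, 0.97 for Top2a and 0.99 for Mcm5.

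At least 1 UMI of Mki67 or Top2a was found in 0 of 10 gated cells in PBS, in 6 of 57 in papain (10.5% [3.96, 21.5]) and in 32 of 101 in the lonidamine library (31.7% [22.8, 41.7]). The exact interval of the 0 of 10 in PBS reaches 30.8% of cells with a UMI. In Cd3+ T cells the shares were 14.0%, 21.7% and 25.5%, and in olfactory neurons, which do not divide, 4.57%, 5.12% and 4.95%, at unthinned median depths of 8106, 7727 and 7085.5 UMIs. The cells with either gene were deeper, with a median of 6661.5 against 3276 UMIs in the lonidamine library. Thinned to 2000 UMIs, Mki67 was found in 0 of 10, 3 of 57 and 17 of 95 gated cells. Il5 or Il13 was detected in 28 of the 32 cells with Mki67 or Top2a in the lonidamine library and in 46 of the 69 without, at these unequal depths. Without the cells with Mki67 or Top2a, a split chosen after the data were seen, 286 genes were called higher and 168 lower of 4226 compared between the lonidamine library and papain, or 6.77% and 3.98%, beside 6.19% and 3.46% of 5928 with them.

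Of 13 glycolytic genes compared between the papain-treated libraries, 0 were called in either direction, and the median log2 ratio was 0.03. Of 8 lonidamine target genes, 0 were called, with a median of -0.03. Hk2, the inducible hexokinase, had 1, 27 and 43 UMIs (0.00 [-0.72, 0.76]) and Hk1, the constitutive one, 1, 25 and 36 (-0.14 [-0.91, 0.66]). Ldha, lactate dehydrogenase, had 615, 651 and 664 CPM (0.03 [-0.21, 0.27]). The mitochondrial pyruvate carrier genes Mpc1 and Mpc2 had ratios of -0.21 [-0.67, 0.27] and -0.11 [-0.66, 0.46], and Sdha, a subunit of succinate dehydrogenase, 0.29 [-0.30, 0.92]. The lactate transporter genes Slc16a1 and Slc16a3 had fewer than 20 UMIs and were not compared. Lonidamine acts on the proteins, which were not measured. Papain against PBS had 3 of 6 targets called higher, Hk1, Hk2 and Sdha, each from 1 UMI in PBS and each with a log2 interval that included 0.

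Lipid genes also had 0 of 11 called between the papain-treated libraries, with a median of 0.09. Dgat1, which makes triglyceride for storage, had 255, 654 and 469 CPM, a log2 ratio of 1.31 [0.53, 2.33] in papain against PBS and -0.48 [-0.74, -0.22] in the lonidamine library against papain. Pparg, a lipid-sensing nuclear receptor of ILC2, had 0, 21 and 51 UMIs.

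Genes that respond to tissue dissociation were partly higher in the lonidamine library than in papain, with 4 of 16 called higher and 0 lower and a median of 0.44. They were Ier3, Atf3, Hspa1a and Zfp36, all stress or immediate early genes. Zfp36, which destabilizes cytokine messenger RNA, had 339, 286 and 806 CPM (1.49 [1.18, 1.82]), and Ier3 had 21.2, 95.4 and 325 CPM. The log2 ratio of Atf3 was 1.09, and -0.11 without the cells called doublets. The part of handling in the levels of Fos, Jun and Socs3 was not tested. Hspa1a has a near-identical copy, so its counts are uncertain.

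**Figure D5:**
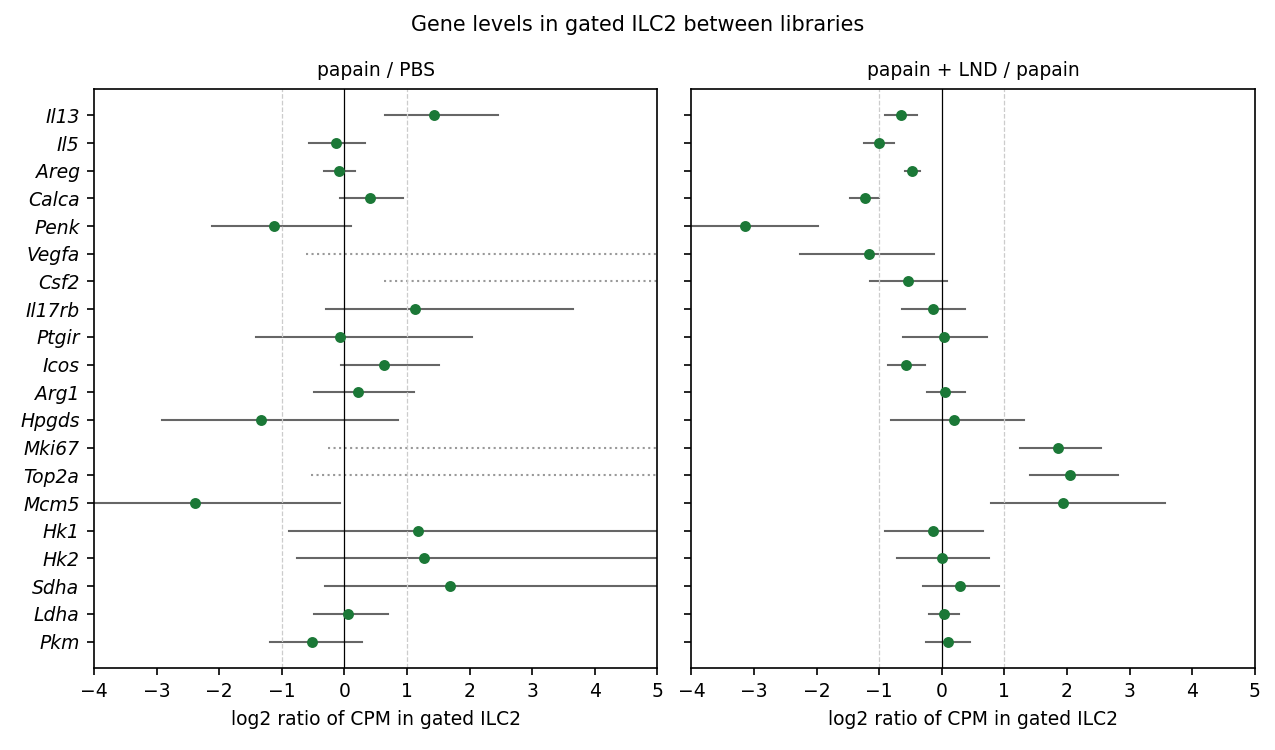
Log2 ratio of the level in gated ILC2 (x axis) for papain against PBS (left) and papain + LND against papain (right). Points are ratios with 0.5 counts added, lines are 95% counting intervals cut at the frame, and a dotted line without a point marks a gene with 0 UMIs in PBS. In the right panel Il13, Il5, Areg, Calca and Penk lie below 0, Mki67, Top2a and Mcm5 above it, and Hk1, Hk2, Ldha and Pkm around it.

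Genes outside the lists were taken by a rule on detection, counting interval and size of the ratio. Between the lonidamine library and papain 116 genes met it as higher and 76 as lower. By 2-fold alone, 6.19% of all 5928 genes compared were higher and 3.46% lower. The rule set its detection and level minimums in the higher library and used the interval itself. These counts therefore follow from the selection and are no finding, and the intervals below belong to genes chosen by them. Akap12, a scaffold for protein kinase A, had the lowest ratio, with 23, 123 and 19 UMIs (-3.32 [-4.14, -2.65]). Its 123 UMIs in papain lay in 21 cells, with 40 in a single one, and its log2 ratio in Cd3+ T cells was 0.05. Mc5r, a melanocortin receptor, had 3, 31 and 12 UMIs (-1.99 [-3.13, -1.03]) and 0 and 1 UMIs in T cells of the papain and lonidamine libraries. Ptgs2, the inducible cyclooxygenase of prostaglandin synthesis, had 3, 125 and 78 UMIs (-1.34 [-1.77, -0.92]), and Egln3, a hypoxia-induced prolyl hydroxylase, 1, 30 and 11 (-2.07 [-3.25, -1.07]), with 13 of the 30 in 1 cell. The other 6 lower ones were Cog2, Smox, Bcl2a1d, Bach2, Sytl3 and Wrn, between -1.82 and -1.31, and Bcl2a1d shares sequence with its paralogs, so its counts are uncertain.

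The highest of the 116 were Rad18, a ubiquitin ligase of DNA damage tolerance, with 1, 2 and 25 UMIs (2.69 [0.98, 6.11]), and Gbp4, an interferon-induced GTPase. Gbp4 had 0, 3 and 30 UMIs (2.46 [0.98, 5.02]), of which 13 lay in 1 cell. Tnfsf14, which encodes the cytokine LIGHT, had 0, 3 and 27 UMIs in 0, 3 and 22 cells (2.31 [0.81, 4.87]). Myo1f, Nbeal2, Il3ra and Klhl6 followed with ratios from 2.15 to 1.86, beside Top2a, Mcm5 and Mki67 given above.

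In papain against PBS the 10 highest by the same rule all had 0 UMIs in PBS: Ccr2, Map3k8, Ctla4, Csf2, Il18rap, Aff1, Dkk3, Bcl7c, Tnip1 and Cysltr2. With the floor of 3 counts in place of that 0, their levels in papain were from 2.56-fold (Ccr2) to 1.32-fold (Cysltr2) those in PBS. The log2 intervals started at 1.01 for Ccr2 and at 0.016 for Cysltr2, so the folds can be smaller. Map3k8, a kinase between NF-kB and MAP kinase signalling, had 50 UMIs in 25 papain cells and 78 in 36 lonidamine cells. Among those lower in papain, Bcl2, the survival factor of lymphocytes, had 15, 34 and 73 UMIs (-1.76 [-2.65, -0.75]), and Relb, an NF-kB subunit, 8, 18 and 22 (-1.80 [-3.02, -0.34]). Lif was given above, and Stx4a, H1f2, Taf15, Capg, Galnt11 and Golim4 lay between -2.67 and -1.76.

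The lonidamine library against PBS shares both libraries with the comparisons above, and its values are given only beside them. Of its 10 highest genes, Mki67, Top2a, Ccr2, Il18rap, Map3k8 and Ctla4 have been given. Pclaf, a replication factor partner, Nup210, a nuclear pore protein, Bin2 and Pcsk1, a prohormone convertase, were the others, each with 0 UMIs in PBS. With the floor in place of that 0, their levels were from 2.40-fold (Pclaf) to 1.53-fold (Pcsk1) those in PBS. The log2 intervals started at 0.93 for Pclaf and at 0.27 for Pcsk1. Akap12 was the lowest, at -3.85, and H1f2, Sp3os, Relb, Mtln, St6galnac3, Spr, Rnf126 and Jdp2 lay between -2.54 and -2.07.

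Against Cd3+ T cells of the same library, gated ILC2 stood out by secreted products and a few enzymes and receptors. These values describe cells that were gated by absence of Cd3. Hs3st1, a heparan sulfate sulfotransferase, had 764, 704 and 309 CPM in gated ILC2, against 16.4, 12.9 and 6.25 CPM in T cells and 13.9, 0 and 20.7 CPM in natural killer cells. Its log2 ratio to T cells was at least 5.53 in every library. Arg1, which degrades arginine, had 339, 407 and 424 CPM against 4.46, 17.3 and 13.0 CPM in T cells. Calca had 21.6, 26.2 and 27.6 CPM in T cells, between 4.05 and 5.35 below the gated cells on the log2 scale. Il5 had 0, 16.3 and 13.5 CPM in T cells. Stab2, Igsf5, Mc5r, Csf2, Slc18a2, Il17rb, Ccl1, Pcsk1, Ptgir and Rab27b completed those with the largest ratio over the papain and lonidamine libraries, all at 3.26 or more in both. Olfr887, an odorant receptor, also met the rule, from 1 cell in papain and 1 in the lonidamine library.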

How the data were processed

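Nasal mucosa was dissociated with collagenases and Dispase and run on the 10x Genomics platform, per the labels' protocols. The deposited matrices hold UMI counts per gene and cell (55357 genes), which the authors made with Cell Ranger: version 2.1.1 per the submitters' processing notes, 7.1.0 per the file headers, on GRCm39. Counts were summed over gated cells per library, scaled to CPM and compared as log2 ratios with 0.5 counts added and a conditional exact binomial interval. Levels have exact Poisson and shares Clopper-Pearson intervals. No test between groups was possible with 1 library per group, and the 3 comparisons share libraries. Doublets were called with Scrublet in scanpy 1.11.5 and kept. Python 3.11.15, numpy 2.4.6, scipy 1.17.1, pandas 2.3.3 and matplotlib 3.10.9 were used, and the ratio and interval code was tested on simulated data.

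Genes outside the lists were named when they had at least 20 UMIs in both libraries together, a log2 interval without 0, a UMI in at least 15% of gated cells of the higher library, and a CPM there at least 2-fold that over all its kept cells. Mitochondrial, ribosomal, Gm, Rik, Xist, Tsix and Y-linked genes were left out, and the 10 with the largest ratio each way were taken. The 15 genes highest against T cells needed 30 UMIs. Members and gene lists were chosen with earlier results of these data known. Some genes that met these rules are not reported here.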

Additional observations from a re-analysis of the deposited data

Results flagged for a closer look

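The share of gated ILC2 differed in direction between the sexes of the pooled cells. The log2 fold of the share, lonidamine library against papain, was 0.56 among female cells, from 43 and 86 gated cells, and -0.39 among male cells, from 7 and 4. The difference was not tested, and the interval of the male value runs from -2.61 to 1.59.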

How the results depend on the processing

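No paired analysis was possible because each group is 1 library. The alternatives that remove cells with signs of a second cell, T, B or mast cell genes, Mki67 or Top2a, or the top cell, and the one that sets a library at 0 to 3 counts, were chosen after seeing the data. Ratios are log2, and pairs of gene counts are higher then lower. With the wider exclusion (2, 3 and 7 cells) the shares were 0.0210%, 0.0280% and 0.0576%. The log2 share folds were 0.41 [-2.71, 4.00] (papain against PBS) and 1.45 [-0.94, 4.76] (lonidamine against PBS). Il13 was then at -0.97 against papain, Il5 at -3.05, 1.10 and -1.96 for papain against PBS, lonidamine against papain and lonidamine against PBS, and gene counts, in that order, at 54 and 63, 48 and 63, and 37 and 69. In female cells the papain and lonidamine shares were 0.735% and 1.08%, and Il5 against PBS -0.998 and -2.01. In male cells the shares were 0.329% and 0.251%, and the log2 share folds of the lonidamine library -0.39 against papain and 1.90 against PBS. Il13 and Il5 against papain were at -0.024 and -1.77 there, and the gene counts were 48 and 38, 36 and 24, and 25 and 19. Thinning gave shares of 0.398% and 0.567%, Il13 against PBS of 0.60 and -0.078 and Il5 of 0.81 and -0.37, and the mean over cells gave Il5 against PBS of 0.80 and -0.42. Without second-cell signs Il5 was at -1.33 against papain, papain against PBS had 345 and 156 genes, and the lonidamine library had 91 lower than papain and 310 lower than PBS. Without T, B or mast cell genes Il5 was at -0.65 against papain, and without the top cell at -0.50 in the lonidamine library against PBS. A minimum of 50 UMIs gave 177 and 55, 98 and 59, and 334 and 112 genes, and of 1 UMI 1461 and 5248, 2202 and 2819, and 1641 and 6275. Lonidamine against PBS had 607 and 259 genes without cycling cells, of 2806 compared (21.6% and 9.23%, beside 21.4% and 10.6% of 4545 with them), and 432 higher with 3 counts for 0. Of 3443 values of single genes 15 reversed. Papain against PBS: Stmn1 2.75 without doublets, 3.78 in female cells, 1.29 in male cells and 2.31 without second-cell signs, and Hmgb2 -0.50 in male cells. Lonidamine against papain: Atf3 -0.11 without doublets and -0.11 without second-cell signs, and Calca 1.05 in male cells. Lonidamine against PBS: without doublets Atf3 -0.038 and Stmn1 2.99, in female cells Stmn1 3.97, in male cells Zfp36 -2.04, and without second-cell signs Atf3 -0.69, Jun -0.0040 and Stmn1 3.02. The cause was not tested. The 47145 UMIs of the PBS cells limit every comparison with that library.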
